A study of Mus musculus with 32 samples.

Results

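Distal H3K9ac regions without H3K4me3 were described in mouse *MLL-AF9* leukemias of 2 genotypes, *Kat2a* WT and *Kat2a* KO. A region was included when peaks of both H3K9ac replicates of a genotype merged into it (a consensus region), when its centre lay more than 5 kb from every transcription start site (TSS) of the GENCODE M21 annotation, and when no H3K4me3 peak of either replicate of that genotype touched it. Members were therefore chosen by their measured H3K9ac and H3K4me3 peaks and by their position, and these values are given as a description. The rule selected 3556 of 21458 H3K9ac consensus regions in WT (16.6%) and 2643 of 18783 in KO (14.1%). When both sets were merged, they covered 4582 places, of which 1458 were selected in both genotypes, 2051 in WT only and 1073 in KO only.

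WT donors were *Kat2a* Flox/Flox, Mx1-Cre -/- and KO donors *Kat2a* Flox/Flox, Mx1-Cre +/-, and pIpC was given to both, so that WT leukemias had the same exposure and differed by the lack of Cre. Lineage-depleted bone marrow cells of both genotypes then received the *MLL-AF9* fusion oncogene by retrovirus and were transplanted into irradiated mice. At the terminal stage, leukemic bone marrow was pooled from 5 animals for WT and from 4 for KO, and each of the 4 histone marks was profiled by ChIP-seq in 2 replicates per pool. Both replicates of a genotype come from the same pool, and their spread thus leaves out the variation between leukemias and may be technical.

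Acetylation of histone H3 at lysine 9 is deposited in large part by Kat2a (GCN5) and its paralog Kat2b (PCAF) and marks active promoters and enhancers. H3K4me3 marks promoters, H3K4me1 marks enhancers whether or not they are active, and H3K27ac is added to both element types when they are active. H3K9ac far from a TSS and without H3K4me3 is thus a feature expected mostly of enhancers, and in myeloid cells such elements commonly hold binding sites of PU.1, C/EBP, RUNX and AP-1 factors.

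The strongest region present in both genotypes sat at chr9:65540820-65543654 (mm10), 19.9 kb downstream of the *Plekho2* TSS, and the next at chr12:51864602-51867705, 22.8 kb downstream of the *Heatr5a* TSS. Both were intergenic. The strongest region without any H3K9ac peak in KO lay at chr13:59242090-59242805 in the intron of a noncoding gene, with *Agtpbp1*, an enzyme that shortens glutamate side chains of tubulin, as the nearest protein-coding gene at 207.8 kb. The strongest region without any H3K9ac peak in WT lay at chr15:77820239-77820643 in an intron of *Myh9*, which encodes a non-muscle myosin heavy chain. The 300 bases around the summit of these 4 regions are shown as examples of each kind (GRCm38, plus strand, 5′ to 3′), at chr9:65541934-65542233, chr12:51866108-51866407, chr13:59242183-59242482 and chr15:77820279-77820578. Capitals mark matches to the 10 motifs searched, as described with the motif counts.
Plekho2: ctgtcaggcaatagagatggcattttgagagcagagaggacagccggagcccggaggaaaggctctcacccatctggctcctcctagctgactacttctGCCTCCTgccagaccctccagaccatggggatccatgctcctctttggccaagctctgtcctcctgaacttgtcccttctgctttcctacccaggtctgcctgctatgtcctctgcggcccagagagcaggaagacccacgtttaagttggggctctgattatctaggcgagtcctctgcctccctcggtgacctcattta
Heatr5a: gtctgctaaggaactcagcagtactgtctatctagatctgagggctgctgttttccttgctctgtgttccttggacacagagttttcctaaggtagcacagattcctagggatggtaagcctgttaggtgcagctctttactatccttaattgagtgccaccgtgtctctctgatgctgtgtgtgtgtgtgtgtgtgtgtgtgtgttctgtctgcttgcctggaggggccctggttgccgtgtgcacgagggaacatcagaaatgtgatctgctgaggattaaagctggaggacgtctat
Agtpbp1: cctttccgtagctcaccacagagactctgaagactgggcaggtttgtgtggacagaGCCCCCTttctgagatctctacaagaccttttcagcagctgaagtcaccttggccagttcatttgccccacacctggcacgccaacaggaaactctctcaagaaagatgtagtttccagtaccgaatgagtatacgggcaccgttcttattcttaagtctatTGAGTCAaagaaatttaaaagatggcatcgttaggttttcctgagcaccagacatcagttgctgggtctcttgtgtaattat
Myh9: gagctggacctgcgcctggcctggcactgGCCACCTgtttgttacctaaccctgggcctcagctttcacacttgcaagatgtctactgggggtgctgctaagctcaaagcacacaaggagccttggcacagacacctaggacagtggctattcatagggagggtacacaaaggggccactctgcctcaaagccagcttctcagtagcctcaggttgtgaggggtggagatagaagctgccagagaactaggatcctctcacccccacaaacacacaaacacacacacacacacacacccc
The *Plekho2* window was 56.7% G and C with 6 CpG, and the *Heatr5a* window 49.7% with 4 CpG and a run of TG repeats. The *Agtpbp1* window, 46.3% G and C, held TGAGTCA, the letters of AP-1. Those of the CTCF core were found in all of these windows but that of *Heatr5a*, which held none of the 10 motifs.

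Beyond 5 kb of a TSS, H3K4me3 was absent from most H3K9ac regions. Of 5326 such regions in WT, 1770 carried H3K4me3 (33.2%), and of 3778 in KO, 1135 did (30.04%). Among consensus regions nearer to a TSS the shares were 82.0% in WT and 83.6% in KO. The H3K4me3-free regions were narrow, with a median width of 697 bp in WT and 669 bp in KO. Regions centred within 1 kb of a TSS had a median width of 1283 bp in WT and 1151 bp in KO. For the distal H3K4me3-free regions, the median distance to a TSS was 13126 bp in WT and 12913 bp in KO. Of these distal regions, 5.40% and 5.30% lay over 50 kb away. By their centres, 57.7% of the WT regions were intronic, 4.05% exonic and 38.3% intergenic, and the KO regions had nearly the same shares of 57.5%, 4.09% and 38.4%. Many were close to each other, with another member within 10 kb of 41.2% of WT and 42.9% of KO regions.

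Their H3K9ac enrichment was low within each library. At its summit, MACS2 gives a peak a fold enrichment over background, and the median over the distal regions was 3.22 in WT replicate 1, 4.11 in WT replicate 2, 3.50 in KO replicate 1 and 4.39 in KO replicate 2. At regions within 1 kb of a TSS the medians were 9.001, 9.27, 8.08 and 10.03 in the same order. Fold enrichment is comparable only within its own list, so each peak was also given its percentile among all peaks of its library. The median percentile of the distal regions was 41.5 and 42.9 in the WT libraries and 39.2 and 43.3 in the KO libraries. In each of the 4 libraries, then, the typical distal region stood below the middle of the list.

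H3K27ac was found at most of the consensus members in replicate 2, and H3K4me1 at a larger share of them than of promoter regions. Neither mark was used to choose them. In WT, 2514 of 3556 overlapped an H3K27ac peak (70.7%, 95% Wilson interval 69.2 to 72.2) and 1910 an H3K4me1 peak (53.7%, 52.1 to 55.3). In KO, 2515 of 2643 overlapped H3K27ac (95.2%, 94.3 to 95.9) and 2205 H3K4me1 (83.4%, 82.0 to 84.8). Over all H3K9ac consensus regions, H3K27ac was found at 74.0% in WT and 92.2% in KO, near the values of the distal set, and H3K4me1 at 35.9% and 63.1%. In WT the H3K27ac share fell to 40.96% and the H3K4me1 share to 32.8% with regions of H3K9ac replicate 1 alone, and in KO to 62.9% and 58.5%. The union of both H3K9ac replicates gave 41.2% and 36.2% in WT. Intervals of this kind cover counting error only. Each of these values rests on 1 library per genotype, replicate 2, because the replicate 1 lists of both marks consist almost entirely of peaks above a q-value of 0.05, and no test between genotypes was possible. The lists themselves differed in extent: H3K27ac peaks covered 19.7 Mb in WT and 35.8 Mb in KO, and H3K4me1 peaks covered 11.5 Mb in WT and 42.2 Mb in KO. Genotype and list extent cannot be told apart. Of the H3K4me1 peaks, 34.3% in WT and 83.6% in KO had a q-value of at most 0.05, and with these peaks alone H3K4me1 was found at 29.97% of the distal regions in WT and 80.5% in KO.

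The distal regions differed from promoter regions of the same genotype mainly in H3K4me1. Of the regions within 1 kb of a TSS, 27.8% had H3K4me1 in WT and 55.7% in KO, against 53.7% and 83.4% of the distal regions. H3K27ac was found at 78.0% of the TSS regions in WT and 92.4% in KO, against 70.7% and 95.2%. Distal H3K9ac regions that the rule left out for their H3K4me3 stood in between for H3K4me1, with 38.9% in WT and 64.0% in KO. Both marks together were found at 43.4% of the distal H3K4me3-free regions in WT and 80.9% in KO, H3K27ac alone at 27.3% and 14.3%, and H3K4me1 alone at 10.3% and 2.54%. Neither mark was found at 676 regions in WT (19.01%) and 61 in KO (2.31%). When the libraries of a mark were cut to the same number of peaks, the share with H3K27ac was 74.8% in WT and 88.3% in KO, and that with H3K4me1 54.1% and 71.7%. The shares did not change abruptly at the distance limit: among H3K4me3-free WT regions, H3K27ac was found at 245 of 350 centred 4 to 5 kb from a TSS (70.0%) and at 223 of 325 centred 5 to 6 kb away (68.6%), and H3K4me1 at 54.6% of the former and 195 of the latter. In KO the H3K27ac shares were 96.1% of 284 and 95.1% of 244 regions.

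**Figure D1:**
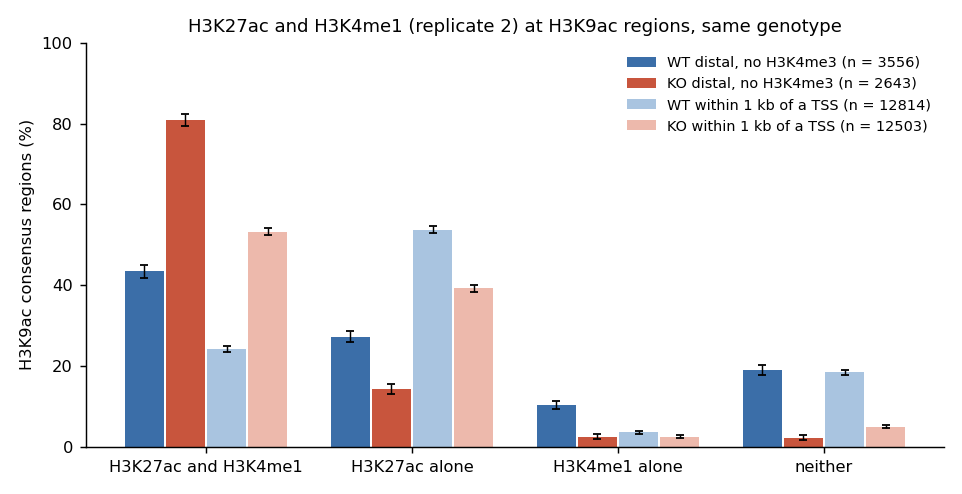
Share of H3K9ac consensus regions (vertical axis, percent) that overlap H3K27ac, H3K4me1, both or neither in replicate 2 of the same genotype, for distal regions without H3K4me3 and for regions centred within 1 kb of a TSS. Error bars are 95% Wilson intervals over regions. Regions with both marks make up 43.4% of the distal set in WT and 80.9% in KO, above the TSS set of the same genotype.

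Many WT distal regions had no counterpart, meaning no H3K9ac consensus region, in KO, while most KO distal regions had one in WT. Of the WT regions, 1858 overlapped no KO H3K9ac consensus region (52.2%, 50.6 to 53.9), where the share over all WT consensus regions was 22.4%. No peak of either KO replicate was found at 771 of them (21.7%), against 8.14% of all WT consensus regions. Of the KO regions, 556 overlapped no WT consensus region (21.04%, 19.5 to 22.6) against 7.16% of all KO consensus regions, and 135 had no peak in either WT replicate (5.11%) against 1.68%. Regions within 1 kb of a TSS lacked a counterpart in 9.53% of cases in WT and 3.17% in KO. The distal regions thus lacked a counterpart more often than H3K9ac regions at large, in both directions. The WT lists were longer, with 33605 and 31677 H3K9ac peaks against 27657 and 28861 in KO. When every library was cut to the same number of peaks, 42.4% of WT and 26.6% of KO regions had no counterpart. From single replicates the shares ran from 49.96% (replicate 2) to 68.5% (replicate 1) for WT and from 26.6% to 50.3% for KO. Replicates of the same pool also differed. Once merged, WT peaks gave 38980 places, 55.0% with both replicates, and KO peaks gave 33790, 55.6% with both. A KO peak of replicate 1 was found at 54.6% of the WT distal regions and one of replicate 2 at 71.3%. WT peaks were found at 82.7% (replicate 1) and 89.7% (replicate 2) of the KO distal regions. The part of replicate differences in the shares without a counterpart was not tested. Read counts are not in the lists, and a place without a peak has no known detection limit.

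Regions with a counterpart mostly kept their class. Of the WT regions, 1505 were also distal and free of H3K4me3 in KO (42.3%), 181 overlapped a distal KO region with H3K4me3 (5.09%) and 12 a region centred within 5 kb of a TSS. A further 1087 (30.6%) had a KO peak but no consensus region. Of the KO regions, 1570 had a counterpart in the same class (59.4%), 497 a distal WT region with H3K4me3 (18.8%) and 20 a region nearer a TSS. The share of KO regions that met H3K4me3 in WT was set by a single list. WT H3K4me3 replicate 1 touched 484 of the 2643 KO regions (18.3%) and replicate 2 touched 53 (2.01%), while the KO H3K4me3 replicates touched 132 (3.71%) and 170 (4.78%) of the 3556 WT regions. WT H3K4me3 replicate 1 held 23297 peaks over 18.7 Mb and replicate 2 held 15685 over 10.03 Mb. Without WT and KO H3K4me3 replicate 1, 4748 WT and 2862 KO regions met the rule.

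Presence in the other genotype went with the other marks. A KO consensus region was found at 63.2% of the 1544 WT regions with both H3K27ac and H3K4me1, at 51.2% of the 970 with H3K27ac alone, at 21.9% of the 366 with H3K4me1 alone and at 21.4% of the 676 with neither. In the KO set the shares were 81.9%, 74.3%, 41.8% and 45.9% in the same order. Regions with H3K27ac were therefore found again more often than those without it in both genotypes. Wider regions were found again more often too, from 19.98% of WT regions under 500 bp to 98.8% of those of 2000 bp and more, and from 56.4% to 104 of 104 in KO. The mark classes were not matched for width or enrichment, and the part of either in their shares was not tested.

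**Figure D2:**
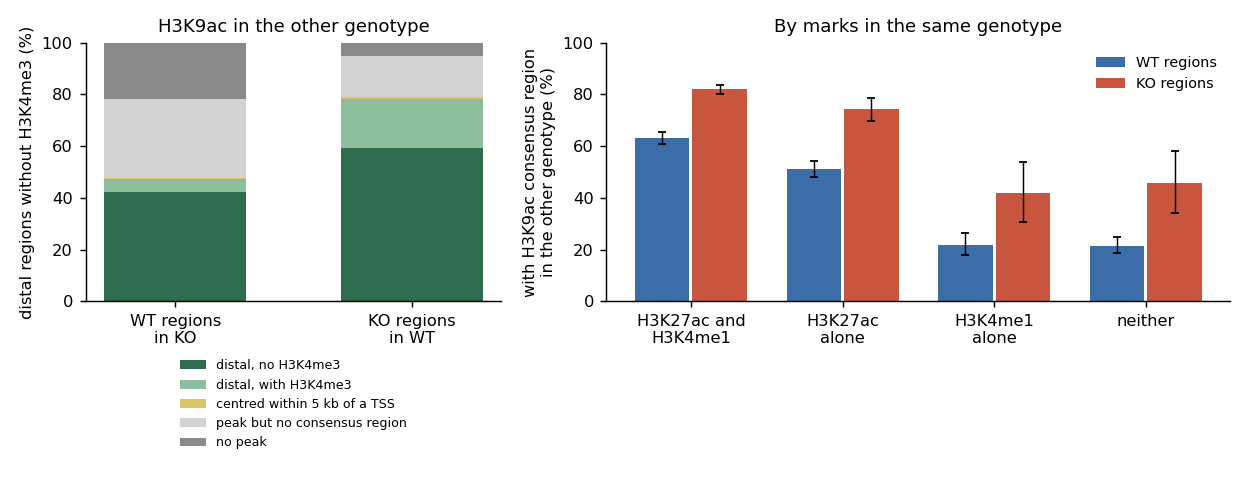
Left, what was found in the other genotype at the distal regions without H3K4me3 (stacked bars, percent of 3556 WT and 2643 KO regions). Right, the share with an H3K9ac consensus region in the other genotype by the marks in their own genotype (95% Wilson intervals), which runs from 63.2% with both marks to 21.4% with neither in WT.

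Low enrichment accompanied absence in the other genotype. WT regions with no KO peak had a median percentile of 30.2 in replicate 1 and 27.04 in replicate 2, and those with a KO consensus region 51.1 and 54.5. When regions were binned by percentile within a library, distal regions lacked a counterpart more often than TSS regions in each of the 4 lower bins of each library. The bins did not match width, which was smaller at distal regions, and its part in this was not tested. Between the 40th and 60th percentile of WT replicate 2, 586 of 1155 distal regions (50.7%, 47.9 to 53.6) and 400 of 1853 TSS regions (21.6%, 19.8 to 23.5) had no KO consensus region. In the same bin of KO replicate 2 the shares without a WT counterpart were 15.9% (13.6 to 18.4) and 6.50% (5.47 to 7.71). Few distal regions reached the top bin, 84 in WT replicate 2, and 1 of them had no KO counterpart.

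**Figure D3:**
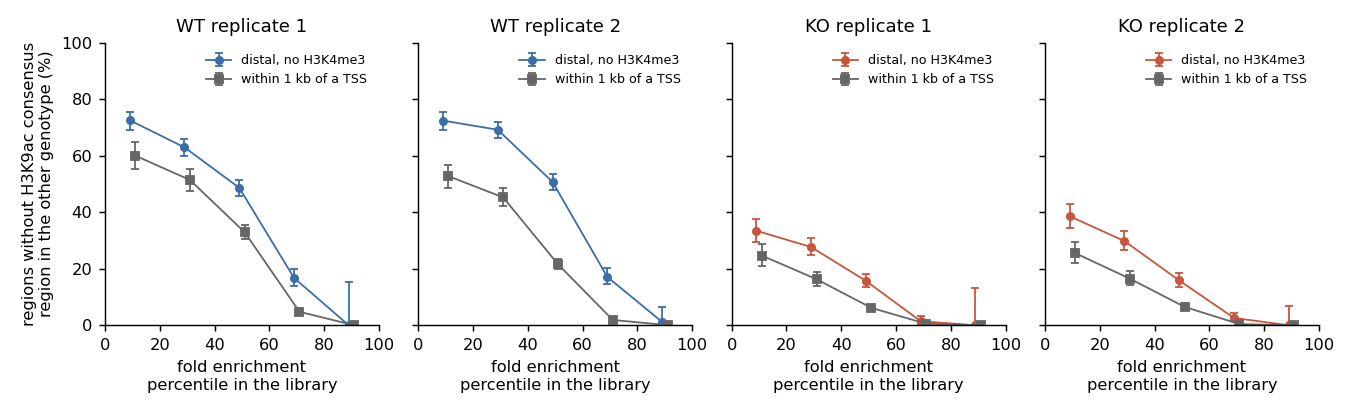
Share of H3K9ac consensus regions without a consensus region in the other genotype (vertical axis, percent) by the percentile of fold enrichment in the library (horizontal axis, bins of 20), 1 panel per H3K9ac library, with 95% Wilson intervals. Coloured circles are distal regions without H3K4me3 and grey squares regions within 1 kb of a TSS. In the 40 to 60 bin of WT replicate 2 the values are 50.7% and 21.6%. Widths are not matched within bins.

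The WT regions without an H3K9ac peak in KO were not bare of other marks there. Of these 771 regions, 490 overlapped a KO H3K27ac peak (63.6%), 525 a KO H3K4me1 peak (68.1%) and 643 at least 1 of the marks (83.4%). The shares were higher at the 1698 WT regions with a KO counterpart, at 97.2%, 88.6% and 98.8%. In WT itself, 41.1% of the 771 regions had H3K27ac and 40.1% H3K4me1, against 86.7% and 62.2% of the 1698. The KO lists of both marks cover more of the genome, as given above. The part of this in the difference between KO and WT shares was not tested. Among the 135 KO regions without a WT peak, 40 overlapped WT H3K27ac (29.6%) and 43 WT H3K4me1 (31.9%). Of the 2087 KO regions with a WT counterpart, 86.1% and 56.2% did.

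Both measures of H3K9ac that can be read per library are descriptions, because the rule used these libraries. Distal H3K4me3-free peaks made up 25.05% and 25.3% of all H3K9ac peaks in WT and 23.1% and 22.8% in KO. The WT libraries were both higher than the KO libraries, with means of 25.2% ± 0.208 (SD, n = 2) and 22.9% ± 0.173 (SD, n = 2), a difference of -2.26 percentage points. Over the 1458 regions selected in both genotypes, the median percentile of fold enrichment was 51.1 and 55.3 in the WT libraries and 42.4 and 47.9 in the KO libraries, again without overlap, a difference of -8.01 percentiles. Their median fold enrichment was 3.72 and 5.13 in WT and 3.72 and 4.69 in KO. The percentiles come from lists of different length, and when every library was cut to the same number of peaks, the differences were -0.63 percentage points and -1.07 percentiles and the libraries of the genotypes overlapped. Without H3K4me3 replicate 1 the first difference was -5.79 percentage points and without H3K4me3 replicate 2 it was -0.86. When H3K4me3 of either genotype was excluded it was -3.77.

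The 10 strongest regions selected in both genotypes, ordered by the lowest of their 4 percentiles, lay nearest to *Plekho2*, *Heatr5a*, *Ago2*, *Krt78*, *Irf2bpl*, *Sh2b2*, *Rpl9-ps1*, *Eps8l3*, *Tnfaip3* and *Tomm20*. The lowest percentile ran from 72.9 to 84.8. At the *Plekho2* region the H3K9ac fold enrichment was 11.6 and 21.2 in WT and 15.0 and 19.7 in KO. At the *Heatr5a* region it was 9.17 and 14.5 in WT and 14.2 and 20.6 in KO. A region lay 28.6 kb inside *Ago2*, which encodes the slicer of small RNA silencing, with 8.21 and 17.9 in WT and 14.9 and 13.0 in KO. A region 46.9 kb upstream of *Tnfaip3*, which encodes the NF-kB inhibitor A20, had 6.93 and 9.81 in WT and 7.65 and 12.2 in KO. The values of the genotypes overlapped at each of these 4 regions, although fold enrichments of separate libraries are not on a common scale. All 10 overlapped H3K27ac and H3K4me1 peaks of replicate 2 in both genotypes, and 8 of them were intergenic. The widest, 6788 bp, lay 97.9 kb from *Tomm20*, a receptor of mitochondrial protein import.

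The 5 strongest WT regions without a KO H3K9ac peak lay nearest to *Agtpbp1*, *Chd9*, *Nfe2l3*, *Vipr1* and *Mreg*. The *Agtpbp1* region had an H3K9ac fold enrichment of 7.25 in WT replicate 1 and 7.64 in replicate 2, and H3K27ac peaks in both genotypes, of 4.38 in WT and 4.39 in KO. The region in an intron of *Chd9*, a chromatin remodeler, had 6.04 and 6.97 in WT, no H3K27ac peak in WT and one of 4.06 in KO. Whether reads map to this region alone was not tested, and for this reason its sequence is not shown. The *Vipr1* region, 7.0 kb downstream of the TSS of this receptor of vasoactive intestinal peptide, had 5.12 and 5.61 in WT and carried H3K27ac and H3K4me1 in both genotypes. A KO H3K27ac peak was listed at 3 of these 5 regions. The 5 strongest KO regions without a WT peak were intronic and weaker, with a lower percentile of 39.7 to 47.4. They lay nearest to *Myh9*, *Npffr1*, *Ptprj*, *Tbc1d7* and *Nkx6-2*. The *Myh9* region had 3.95 and 4.73 in KO and overlapped H3K4me1 in WT (3.23) and KO (5.08). The region in *Ptprj*, a receptor-type tyrosine phosphatase, had 3.78 and 5.00 in KO.

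By nearest protein-coding TSS, which need not be the gene a region acts on, the WT regions fell to 1956 genes (8.92% of 21938) and the KO regions to 1504 (6.86%). A single region was assigned to 1214 of the WT genes (62.1%), and 103 had 5 or more. Most of these genes also had H3K9ac at their own promoter, taken as 1000 bp upstream to 500 bp downstream of any TSS: 81.6% in WT and 82.5% in KO, against 51.6% and 50.1% of all protein-coding genes. Promoter H3K9ac was listed in both genotypes for nearly all genes that had it in WT, whether or not the distal region had a KO peak. Of 543 genes that had promoter H3K9ac in WT and were nearest to a WT region without a KO peak, 524 had promoter H3K9ac in KO (96.5%, 94.6 to 97.7). Of 918 such genes nearest to a WT region with a KO counterpart, 896 did (97.6%, 96.4 to 98.4). Over all protein-coding genes with promoter H3K9ac in WT the share was 95.7%.

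The 10 genes nearest to the most WT regions included hematopoietic transcription factors. *Etv6*, an ETS family repressor needed for blood stem cells, was nearest to 17 WT and 16 KO regions, and *Baz2b*, a bromodomain gene, to 17 and 13. *Cdk6*, a cell cycle kinase on which *MLL*-rearranged leukemia depends, had 15 and 10, and *Rreb1*, a zinc finger factor, 13 and 9. *Runx2*, a Runt factor of bone development, had 13 and 5. *Tmem189* had 12 and 11, and its gene body overlaps that of *Cebpb*, a myeloid C/EBP factor. *Cxcr4*, the receptor that holds hematopoietic cells in the marrow, had 12 and 10, *Zmiz1* and *Cmip* 11 and 10 and 11 and 9, and *Runx1* 11 and 7. These genes were chosen by their WT count, which by itself favours lower counts in KO, so nothing is read from the direction. Counts were not adjusted for gene length or spacing, and 50.4% of all WT regions were centred inside the body of their nearest protein-coding gene.

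Genes of the stem and progenitor transcription factor list had 47 WT and 50 KO regions, over 6 and 7 of its 13 genes. Besides *Etv6* and *Runx1*, *Erg* had 10 in each genotype and *Fli1* 5 in WT and 3 in KO, and both encode ETS factors of stem cells. *Mecom*, which encodes the stem cell factor Evi1, had 2 in WT and 8 in KO, and 4 of these 8 had WT consensus H3K9ac. *Lmo2* had 2 and 4. Of all 3556 WT and 2643 KO regions, 48 and 31 fell to the *MLL* fusion target list, over 7 of 14 genes in each genotype. Of its members, *Cdk6* had the most, 15 and 10. *Meis1*, a homeobox cofactor of Hoxa9, had 9 and 4, *Mef2c* 7 and 7, *Zeb2* 8 and 5, *Jmjd1c* 4 and 3 and *Pbx3* 3 and 1. The WT regions assigned to *Zeb2* lay from 6.9 to 1254.2 kb from its TSS. *Hoxa5* had no consensus H3K9ac at its promoter in either genotype and was nearest to none of the regions. *Hoxa7*, *Hoxa9* and *Hoxa10* had H3K9ac at their promoters in both genotypes and were also nearest to none. The starts of the latter genes lie so close together that no centre between them can be over 5 kb from every TSS. The rule itself thus admits no region between them.

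Other lists had fewer regions, and their counts too were not adjusted for gene length. For example, *Cebpa* spans chr7:35119293-35121928 and *Etv6* chr6:134035700-134270158. The part of gene length in these counts was not tested. The myeloid transcription factor list had 1 of 10 genes with a region in WT, *Spi1*, which encodes PU.1, and 4 of 10 in KO, *Spi1*, *Cebpa*, *Gfi1* and *Irf8*. These genes fall under the number set for naming and were named after their values were seen. Both KO regions of *Cebpa* and both of *Gfi1* overlapped WT H3K9ac consensus regions, and no selected WT region was assigned to either gene. *Cebpb*, also on this list, had no region in either genotype. Its start at chr2:167688915 (plus strand) lies close to that of *Tmem189* at chr2:167689822 (minus strand). Regions near both starts can thus be assigned to *Tmem189*, which had 12 WT and 11 KO regions. The part of this in the *Cebpb* count was not tested. Of 14 cytokine receptor genes, 6 had a region in WT and 5 in KO, led by *Tnfrsf1b*, a receptor of tumor necrosis factor, with 6 and 3, and *Ifngr1*, a chain of the interferon gamma receptor, with 3 and 3. The list of granule and effector genes had regions at 3 of 15 genes in WT and 1 in KO. All protein-coding genes had a region in 8.92% and 6.86% of cases.

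**Figure D4:**
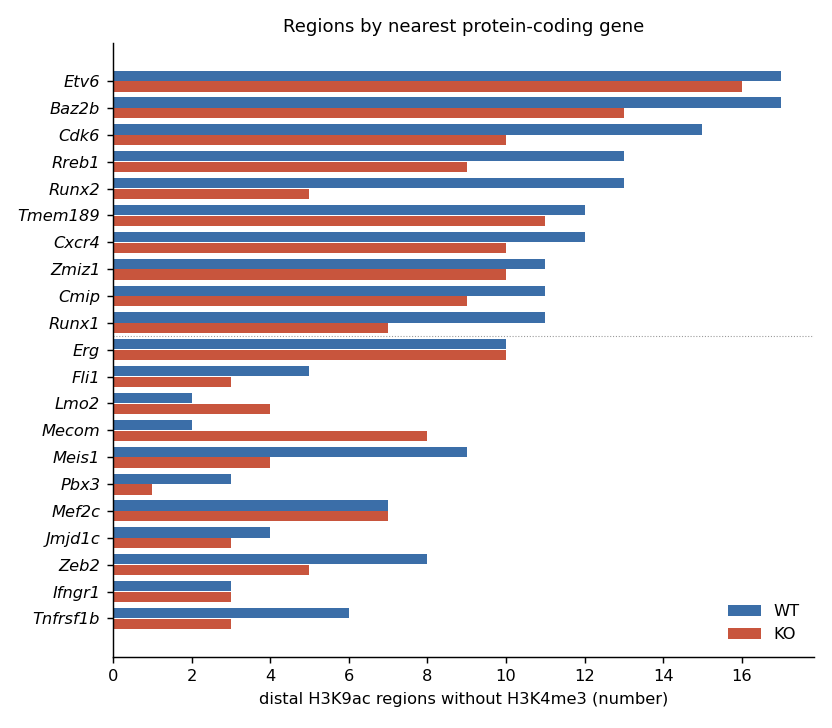
Number of distal H3K9ac regions without H3K4me3 (horizontal axis) by nearest protein-coding gene in WT and KO. Above the dotted line are the 10 genes with the most WT regions, and under it further genes of the lists with at least 3 regions in a genotype. The first 10 genes were chosen by their WT count, and among the others *Mecom* (2 and 8) and *Lmo2* (2 and 4) have more regions in KO.

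The labelled cell type was checked by promoter H3K9ac. Consensus H3K9ac was found at the promoters of 9 of 9 myeloid markers in WT and 7 of 9 in KO, where *Mpo* and *Elane* had no peak in replicate 1. It was found at 1 of 6 B cell markers in each genotype (*Cd79b*) and 1 of 6 T cell markers (*Lck*), with *Pax5* and *Cd3e* without any peak. It was found at none of 3 NK cell markers, at 1 of 5 erythroid markers in WT and 2 in KO, and at 3 of 5 megakaryocyte markers in both genotypes. Of these lists, B cell, T cell and megakaryocyte markers were nearest to no distal region in either genotype, while 1 erythroid marker had a region in WT and 1 NK cell marker in KO. The *Kat2a* promoter had an H3K9ac fold enrichment of 8.002 and 4.58 in WT and 7.48 and 11.8 in KO, which does not measure the deletion of the gene, and no distal region was nearest to it.

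In sequence, the distal regions differed from TSS regions, which were richer in CpG. In 300-base windows at the H3K9ac summit, the median G and C content was 49.3% in WT and 50.3% in KO, against 64.0% and 64.3% at TSS regions. The median ratio of observed to expected CpG was 0.237 and 0.232, against 0.743 in both TSS sets. Both genotypes thus gave windows of the same kind. Distal regions with H3K4me3 were intermediate in CpG, with a ratio of 0.384 in WT and 0.421 in KO.

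Letters of hematopoietic transcription factor motifs were more common in distal than in TSS windows for several factors, with or without H3K4me3 at the distal region. Windows were searched on both strands for GAGGAAGT (PU.1), CCGGAAGT (ETS), TGTGGTT (RUNX), TTGCNNAA (C/EBP), TGANTCA (AP-1), AGATAAG (the GATA factors), GGCNGTT (MYB), CACGTG (E-box), TGATTTAT (HOX-PBX) and AGGNGGC (the CTCF core). N is any base, and the PU.1 and ETS letters share GGAAGT. In WT, RUNX letters were in 7.37% of distal windows (6.55 to 8.27), 3.03% of TSS windows and 5.27% of 32851 RefSeq promoters of the same length. PU.1 letters were in 4.44%, 1.82% and 3.202%, and AP-1 letters in 8.35%, 3.38% and 7.81%. C/EBP letters were in 12.7%, 6.60% and 10.8%, and GATA letters in 3.54%, 1.19% and 3.04%. The opposite held for the ETS letters with a CpG, found in 0.619% of distal windows, 2.22% of TSS windows and 3.89% of promoters, and for the CTCF core letters, in 20.8%, 37.1% and 29.4%. Distal WT regions with H3K4me3 had shares near those of the distal regions without it, at 7.80% for RUNX, 3.33% for PU.1, 7.01% for AP-1, 12.1% for C/EBP and 3.39% for GATA. MYB letters were about as common in distal (12.3%) as in TSS windows (12.6%). HOX-PBX letters were in 0.816% of distal windows, 0.156% of TSS windows and 0.977% of promoters, so they were not more common than in promoters. E-box letters were in 4.67%, 5.76% and 7.15% in the same order. KO windows gave similar values, such as 7.83% for RUNX, 3.71% for PU.1 and 12.9% for C/EBP. Base composition differs between the sets as given above, and its part in these shares was not tested. A match of letters is a description and not a binding site.

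**Figure D5:**
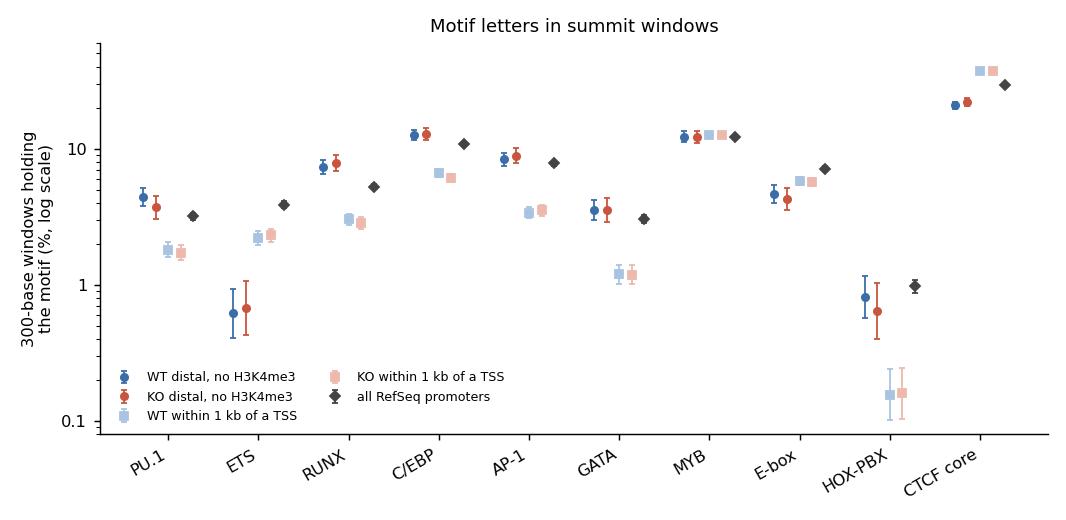
Share of 300-base windows (vertical axis, percent, log scale) that hold each motif on either strand, for distal regions without H3K4me3, regions within 1 kb of a TSS and all RefSeq promoters, with 95% Wilson intervals. RUNX, PU.1, C/EBP, AP-1, GATA and HOX-PBX letters are more frequent in distal than in TSS windows of both genotypes, and ETS and CTCF core letters are less frequent.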

How the data were processed

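ChIP-seq peak lists of 16 libraries (4 marks, 2 genotypes, 2 replicates) were used. The 16 input samples were not analysed here. The authors used BWA for alignment (build mm10) and MACS2 for peaks, which the submitters' processing notes name without versions. Each deposited list gives, for each peak, its fold enrichment (a ratio), −log10 p, −log10 q and a score. All peaks have −log10 p of at least 2. Depth is unknown, since the lists hold no counts. Per the labels, 5000000 cells were used for H3K9ac and H3K4me3 and 500000 for H3K27ac and H3K4me1.

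Replicate peaks that overlapped by at least 1 bp were merged, and a region holding both was a consensus region. TSS were those of all GENCODE M21 transcripts. Replicate 2 alone gave H3K27ac and H3K4me1. Shares have 95% Wilson intervals. Two-sided exact permutation tests of the H3K9ac libraries had been planned, but the rule uses these values, so they are given as a description. Regions are not replicates and were not tested. A region's sequence came from the RefSeq GRCm38.p6 genome, from which all 32851 RefSeq promoter sequences read back without a difference.

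Named regions were the 10 strongest in both genotypes and the 5 strongest in each genotype alone. Named genes were the 10 nearest to the most WT regions and listed genes nearest to 3 or more. Members and lists were chosen with earlier results of these data known. Alternatives were other peak thresholds, overlaps, distances, TSS sets, H3K4me3 filters, unions, equal peak numbers, left-out replicates and other second-mark replicates. Python 3.11.15, numpy 2.4.6, scipy 1.17.1 and matplotlib 3.10.9 were used. The interval code was tested on simulated data against bedtools 2.31.1, and 22 of 22 checks passed.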

Additional observations from a re-analysis of the deposited data

Results flagged for a closer look

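The replicate 1 lists of H3K27ac and H3K4me1, which were not used for the marks given above, also touched distal regions. In WT, 5.596% of the regions overlapped an H3K27ac peak of replicate 1 and 7.28% an H3K4me1 peak of replicate 1. In KO the shares were 0.227% and 2.54%. They were listed because they exceed the share that 3 regions make, 0.0844% in WT and 0.114% in KO. Over all H3K9ac consensus regions the H3K27ac and H3K4me1 lists touched 12.9% and 3.95% in WT, and 0.314% and 1.496% in KO.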

How the results depend on the processing

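In all 13 alternatives run for them, KO had fewer distal regions than WT, and a larger share of WT than of KO regions lacked a counterpart. KO had the larger H3K27ac and H3K4me1 shares in 14 of 15 alternatives and the smaller ones with the replicate 1 lists, at 0.227% and 2.54% against 5.596% and 7.28% in WT. Both differences between libraries stayed negative. Peaks with q of at most 0.05 gave 29.97% H3K4me1 in WT. At −log10 q of at least 5, 1495 WT and 1058 KO regions remained, with H3K4me1 at 0.0669% and 29.5%. A distance of 10 kb left 2303 and 1681 regions, and outermost protein-coding TSS gave 4004 in KO. The union of replicates gave 11857 and 9578 regions, with H3K27ac at 41.2% and 66.8% and H3K4me1 at 36.2% and 64.4%.

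Leaving out 1 H3K9ac or H3K4me3 replicate gave 3606 to 8418 WT and 2862 to 6585 KO regions, the highest values from a single H3K9ac replicate. H3K27ac ranged from 40.96% to 70.3% in WT and from 62.9% to 94.8% in KO, and H3K4me1 from 32.8% to 53.5% and 58.5% to 82.6%. Regions without a counterpart ranged from 47.0% to 68.5% in WT and for KO from 19.2% to 50.3%. The cause of these shifts was not tested.

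The replicate numbers mark no shared animal across genotypes. As a replicate block, differences within a number were -1.99 and -2.53 percentage points (mean -2.26) and -8.66 and -7.37 percentiles (mean -8.01). The deviations of same-numbered replicates had r = 0.16 across 1458 regions. Depth is unknown, so weak regions cannot be told from absent ones.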

Other observations

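Distal windows held more repeat sequence than TSS windows. On average 13.8% of the bases of a window were marked as repeat in the reference in both genotypes, against 5.75% at WT and 5.55% at KO TSS regions. The C/EBP letters were in 15.0% of the 771 WT windows without a KO peak (12.7 to 17.7) and in 11.6% of the 1698 with a KO counterpart (10.2 to 13.2), and the intervals overlap.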
